A study of Mus musculus with 14 samples.

Results

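Sca-1Hi and Sca-1Lo cells of the adult mouse prostate were compared across all genes on 7 of the 14 arrays of the series, the 3 whose titles name Sca-1Hi and the 4 whose titles name Sca-1Lo. Sca-1, the product of *Ly6a*, is a surface antigen anchored by a lipid, and cells bearing it were separated by fluorescence-activated cell sorting. Both populations came from the ducts next to the urethra of male mice. Their age is given as 6 to 8 weeks in the labels and 6 weeks in the methods, and their strain as C57BL in the labels and C57BL/6 in the methods. The labels name no transgene, mutation or treatment for any group. Sca-1Hi cells had the brightest Sca-1 staining and are described by the study as enriched in adult prostate stem cells, and Sca-1Lo cells had medium to low staining and are described as transit-amplifying. The other 7 arrays, used here for the estimate of spread and for levels, hold 4 Sca-1Neg samples (adult cells without Sca-1) and 3 samples of urogenital sinus epithelium (UGE) from embryonic day 16. Each adult array was made from 10000 to 50000 sorted cells. The number of mice or of separate sorts behind an array is not given in the sources used here, so p-values measure the spread between these arrays, which may be in part technical.

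The prostatic duct is lined by secretory luminal cells above a layer of basal cells, with rarer neuroendocrine cells, and is surrounded by smooth muscle, fibroblasts, vessels and leukocytes. Near the urethra the lining passes into urothelium, the stratified epithelium of the urinary tract. Stratified squamous epithelia such as epidermis and oesophagus are known for a program of late differentiation in which keratins, cross-linked envelope proteins, lipid enzymes and proteases build a barrier. In bulk RNA, fewer cells of a type and less RNA per cell cannot be told apart.

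Signals are PLIER values, a summary of the probes of each probe set on a linear scale, and differences are on the log2 scale as Sca-1Hi minus Sca-1Lo. The median signal lay between 76.3 and 81.0 on Sca-1Hi arrays and between 67.5 and 80.2 on Sca-1Lo arrays. The log2 ratio of the 3′ to the 5′ control probe sets of *Gapdh*, a sign of RNA integrity and labelling, was 3.07 to 3.48 in Sca-1Hi and 1.98 to 3.22 in Sca-1Lo, a difference that did not pass an exact two-sided permutation test (p = 0.343, where 3 against 4 arrays can give no p below 0.0571). Over the tested probe sets, arrays correlated at 0.929 to 0.964 within Sca-1Hi, at 0.872 to 0.975 within Sca-1Lo and at 0.835 to 0.968 between them, so the populations did not separate by overall correlation. The adult arrays also carry study numbers, taken from column names of a supplementary table whose values matched the arrays in 1050 rows. What these numbers mark is not stated. Arrays with numbers 1 and 2 (Sca-1Hi replicate 1, Sca-1Lo replicates 1 and 2) deviated from their group means together, and so did arrays with numbers 3 to 5 (Sca-1Hi replicates 2 and 3, Sca-1Lo replicates 3 and 4), with correlations of 0.23 to 0.70 within a set and of -0.68 to -0.29 across sets. Both populations stand in each set, and values within each set are therefore given for the called probe sets together and for the lists.

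*Ly6a* itself gave signals of 9358, 10253 and 10878 in Sca-1Hi and of 5820, 3130, 8348 and 8504 in Sca-1Lo. The arrays did not overlap, and the lowest value belonged to Sca-1Lo replicate 2. The difference of 0.76 ± 0.38 (SE) did not pass the test over all probe sets (limma, adjusted p = 0.537), and *Ly6a* averaged 581 in Sca-1Neg. Since cells were sorted on this antigen, its order is a check of the labels and no finding.

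A probe set was called at a Benjamini-Hochberg adjusted p under 0.05 in the limma fit of all 14 arrays and a change over 1.75-fold. Of 41031 probe sets tested, 18 were higher in Sca-1Hi (0.0439%) and 9 were lower (0.0219%). Without adjustment, 5.6% of probe sets were higher and 4.23% lower at p under 0.05, and in 5.86% of probe sets every Sca-1Hi array lay above every Sca-1Lo array and in 6.11% below. The 18 higher probe sets belong to 17 named genes and 1 has no gene name, and the 9 lower probe sets belong to 5 named genes and 3 have none. With 1 probe set per gene, the one of highest mean signal, 14 of 17212 genes were called higher (0.0813%) and 3 lower (0.0174%). At an unadjusted p under 0.05, 3.46% of genes were higher and 4.61% lower. The median difference over all genes was -0.04. The counts rest heavily on single arrays. Without Sca-1Hi replicate 2, 3 probe sets were called higher and 0 lower, with 1468 at an unadjusted p under 0.05.

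**Figure D1:**
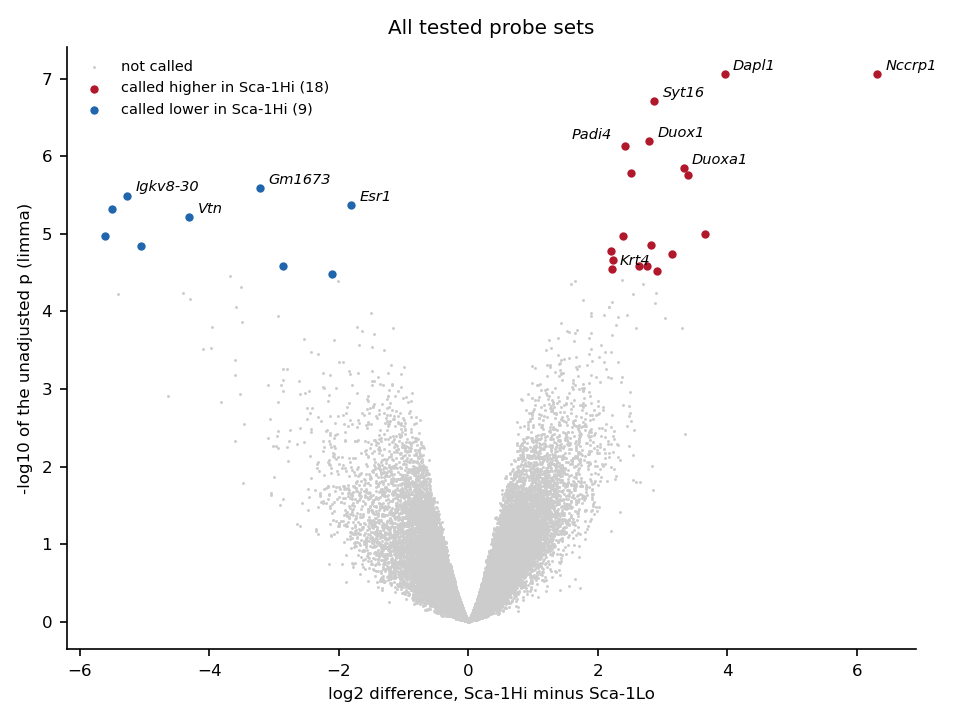
Difference between Sca-1Hi and Sca-1Lo (horizontal axis, log2) against the unadjusted limma p (vertical axis, -log10) for the 41031 tested probe sets, with the 18 called higher in red and the 9 called lower in blue. Fitted values are plotted. Of the called probe sets, 6 of the 18 higher and 7 of the 9 lower had 1 or more arrays below 20, and their positions are no measure of size. Among these are the labelled *Nccrp1* and *Syt16* on the right and *Igkv8-30*, *Vtn* and *Gm1673* on the left.

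Of the 17 named higher genes, 3 were on the list of squamous differentiation genes. *Nccrp1*, a protein with an F-box-associated domain found in squamous epithelia, gave 274, 198 and 321 in Sca-1Hi, against 5.92, 3.10, 2.03 and 2.99 in Sca-1Lo. Every Sca-1Lo array was below 20, the signal under which no level was read, so that the gene was at least 12.95-fold higher in Sca-1Hi (adjusted p = 0.00180). Its mean was also below 20 in Sca-1Neg and in UGE, at 6.44 and 3.72. *Dapl1*, named for its likeness to a death-associated protein and known from early epithelial differentiation, gave 2220, 2679 and 3493 in Sca-1Hi, against 175, 103, 248 and 220 in Sca-1Lo. The groups were far apart, with a 15.5-fold difference (3.96 ± 0.39 on the log2 scale), and unlike *Nccrp1* the gene was also high in UGE, with a mean of 2095. *Krt4*, a keratin of the upper layers of non-cornified squamous epithelia, gave 9329, 9168 and 9487 in Sca-1Hi, against 2682, 1363, 3159 and 1429 in Sca-1Lo. Its Sca-1Hi arrays were almost level with each other (2.21 ± 0.36, adjusted p = 0.0461). The called *Krt4* probe set is of a type that can also bind related transcripts, and a second *Krt4* probe set differed by 2.31 without passing the test (adjusted p = 0.0921).

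Of the list of barrier lipid and peptidase enzymes, *Padi4* and *Lipm* were called, and *Prss22* and *Psapl1*, which are on no list, are given with them. *Padi4*, which converts arginine in proteins to citrulline, gave 252, 306 and 224 in Sca-1Hi, against 54.0, 30.5, 55.4 and 59.2 in Sca-1Lo (2.42 ± 0.28, adjusted p = 0.00598). *Lipm*, a lipase of differentiating keratinocytes, gave 525, 516 and 820 in Sca-1Hi, against 102, 84.0, 72.9 and 87.0 in Sca-1Lo (2.82 ± 0.43, adjusted p = 0.0329). Neither gene's groups overlapped, and the *Lipm* Sca-1Lo arrays lay close to the means of Sca-1Neg (67.3) and UGE (84.0). The called *Lipm* probe set is of a type that can match several transcripts. A second *Lipm* probe set differed by 1.39 without passing the test (adjusted p = 0.189). *Prss22*, a secreted serine protease of the tryptase family, gave 622, 723 and 710 in Sca-1Hi, against 130, 78.4, 241 and 119 in Sca-1Lo (2.39 ± 0.35, adjusted p = 0.0276). *Psapl1*, related to the precursor of the saposins that help break down sphingolipids, gave 377, 584 and 412 in Sca-1Hi, against 102, 104, 132 and 65.5 in Sca-1Lo (2.20 ± 0.34, adjusted p = 0.0361). Both of these genes were also high in UGE, with means of 894 for *Prss22* and 685 for *Psapl1*.

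The second group handles hydrogen peroxide, water and ions. *Duox1*, a dual oxidase that releases hydrogen peroxide at the epithelial surface, gave 301, 671 and 500 in Sca-1Hi, against 74.0, 59.7, 67.2 and 68.5 in Sca-1Lo. *Duoxa1*, the maturation factor that dual oxidase 1 needs to leave the endoplasmic reticulum, gave 285, 756 and 500 in Sca-1Hi, against 57.8, 40.3, 58.0 and 37.8 in Sca-1Lo. In both genes Sca-1Hi replicate 1 was the lowest and replicate 2 the highest of the Sca-1Hi arrays, and the differences were 6.93-fold for *Duox1* (2.79 ± 0.32, adjusted p = 0.00598) and 10.01-fold for *Duoxa1* (3.32 ± 0.41, adjusted p = 0.00883). These genes are neighbours that run in opposite directions on chromosome 2, with start sites 1942 bases apart in the RefSeq annotation. *Fxyd4*, a small regulator of the sodium pump, gave 1872, 2591 and 2376 in Sca-1Hi, against 644, 324, 387 and 221 in Sca-1Lo (2.63 ± 0.42, adjusted p = 0.0450). *Clca2*, of a family that regulates calcium-activated chloride currents, gave 65.4, 104 and 110 in Sca-1Hi, against 15.1, 12.9, 16.96 and 19.1 in Sca-1Lo, and was at least 4.54-fold higher (adjusted p = 0.00883). *Aqp3*, a channel for water and glycerol, gave 209, 144 and 192 in Sca-1Hi, against 27.0, 30.9, 8.66 and 11.8 in Sca-1Lo on its called probe set, and was at least 7.47-fold higher (adjusted p = 0.00883). Of the other *Aqp3* probe sets, the brightest differed by -0.14 and was not called, and the third was below 20 on all 7 arrays.

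The remaining called genes have other roles. *Syt16* and *Syt8* belong to the synaptotagmins, a family known for membrane traffic. *Syt16* gave 53.7, 59.8 and 67.7 in Sca-1Hi, against 5.81, 8.50, 12.4 and 7.42 in Sca-1Lo, at least 3.005-fold higher (adjusted p = 0.00264). *Syt8* gave 695, 1360 and 947 in Sca-1Hi, against 248, 121, 320 and 182 in Sca-1Lo (2.24 ± 0.35, adjusted p = 0.0422). *S1pr5*, a receptor for sphingosine 1-phosphate, was near the floor in both populations, with 22.1, 36.4 and 37.0 in Sca-1Hi, against 5.05, 1.27, 1.94 and 2.97 in Sca-1Lo, and only a bound of at least 1.55-fold can be given (adjusted p = 0.0276). *Adh7*, an alcohol dehydrogenase that oxidises retinol, was at least 7.22-fold higher on its called probe set, where 2 Sca-1Lo arrays were below 20 (adjusted p = 0.0479), and differed by 0.85 on the brighter one, which was not called. *Galnt3*, which starts mucin-type glycosylation, was 6.74-fold higher on its called probe set (2.75 ± 0.44, adjusted p = 0.0450), while its brighter probe set differed by 0.19. For *Aqp3*, *Adh7* and *Galnt3*, probe sets of 1 gene thus disagreed, and their calls belong to the single probe set. The probe set with no gene name gave 1130, 2997 and 1547 in Sca-1Hi, against 196, 121, 391 and 159 in Sca-1Lo (3.15 ± 0.49, adjusted p = 0.0377).

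The called genes fell on both sides of the fetal level. Means in UGE were 809 for *Duoxa1*, 628 for *Duox1*, 308 for *Aqp3*, 210 for *Clca2*, 63.8 for *Syt16* and 9550 for *Krt4*, near or above their Sca-1Hi signals, whereas *Fxyd4* averaged 96.4, *Galnt3* 47.8, *Padi4* 49.9 and *Adh7* 11.1 in UGE. In Sca-1Neg the mean of 16 of the 18 higher probe sets lay below that of Sca-1Lo. Differences from UGE were not tested here.

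**Figure D2:**
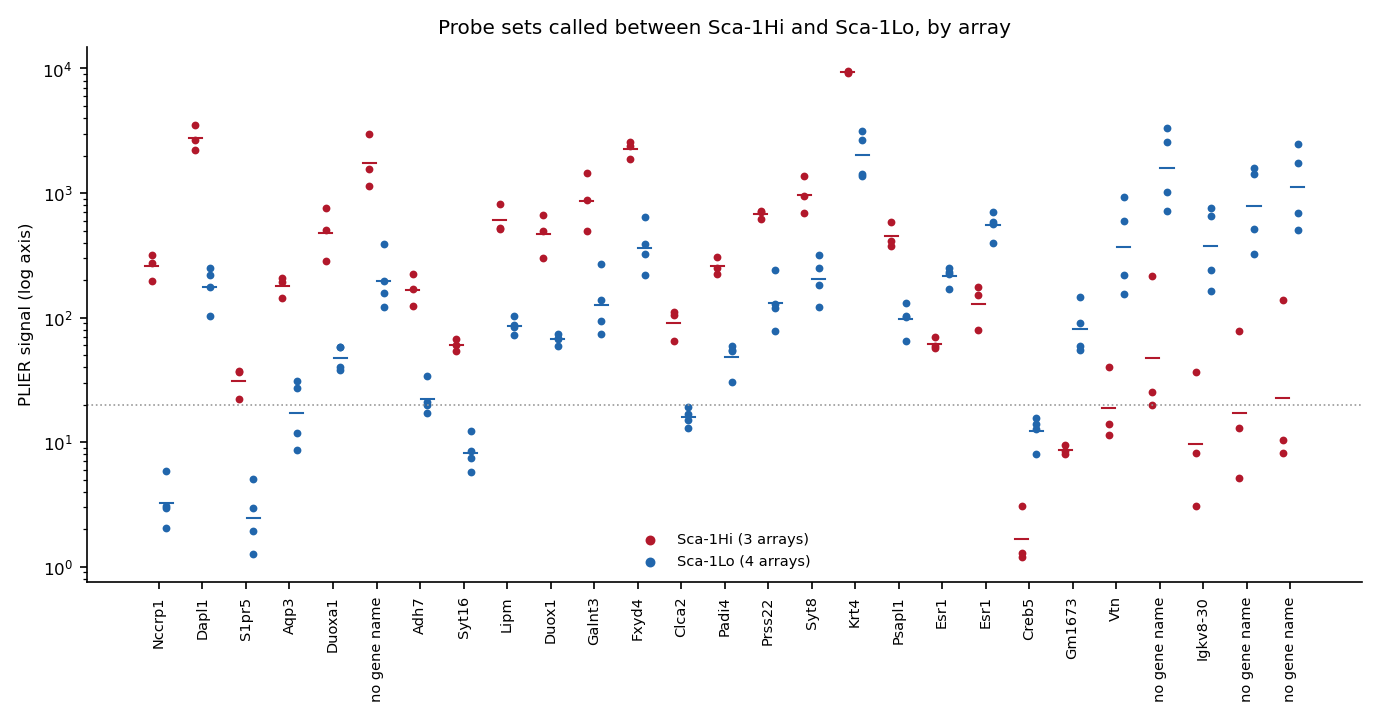
PLIER signal on a log axis of the 27 called probe sets, with the 3 Sca-1Hi arrays in red and the 4 Sca-1Lo arrays in blue, short lines at the mean of the log2 signals and a dotted line at 20. The populations do not overlap in any of the 27, *Esr1* appears with both of its called probe sets, and *Creb5* lies below 20 throughout.

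Start regions were read for the higher genes from RefSeq sequence of GRCm38.p6, 250 bases before to 50 after each start. Of the 17 genes, 14 matched, with 16 start regions. *Nccrp1*, *Krt4* and *Prss22* were not matched. The motifs searched, on both strands and chosen with the gene list known, were the AP-1 site TGANTCA, the Grainyhead site AACNNGTT and the TATA box TATAAA, and no match of one motif overlaps a match of another in the regions printed. AP-1 letters stood in 4 of the 16 regions, against 7.81% of 32851 start regions of the same length, Grainyhead letters in 0 of 16, against 4.2%, and TATAAA in 5 of 16, against 13.6%. Among the genes shown, those with TATAAA about 25 to 35 bases before the start, a window set after the positions were seen and filled in 2.12% of all start regions, were *Dapl1* and *Aqp3* at 29 bases and *Padi4* at 31 bases. Their regions are printed to show this shared position, 5′ to 3′ on the gene's strand, with the TATAAA letters and, in *Padi4*, an AP-1 match 54 bases before the start in capitals. They lie at chr2:59484403-59484702 (plus strand) for *Dapl1*, chr4:41098134-41098433 (minus strand) for *Aqp3* and chr4:140774154-140774453 (minus strand) for *Padi4*.
Dapl1: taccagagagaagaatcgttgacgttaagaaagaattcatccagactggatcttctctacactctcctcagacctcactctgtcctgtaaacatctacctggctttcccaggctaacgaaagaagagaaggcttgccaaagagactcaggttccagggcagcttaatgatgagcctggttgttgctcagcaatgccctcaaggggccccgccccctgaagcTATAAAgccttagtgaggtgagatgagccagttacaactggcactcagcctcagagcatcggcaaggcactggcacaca
Aqp3: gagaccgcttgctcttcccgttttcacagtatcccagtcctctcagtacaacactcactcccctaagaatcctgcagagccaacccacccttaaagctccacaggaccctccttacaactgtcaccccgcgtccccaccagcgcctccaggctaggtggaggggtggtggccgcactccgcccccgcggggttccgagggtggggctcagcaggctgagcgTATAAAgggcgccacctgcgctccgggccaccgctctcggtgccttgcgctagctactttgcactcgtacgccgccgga
Padi4: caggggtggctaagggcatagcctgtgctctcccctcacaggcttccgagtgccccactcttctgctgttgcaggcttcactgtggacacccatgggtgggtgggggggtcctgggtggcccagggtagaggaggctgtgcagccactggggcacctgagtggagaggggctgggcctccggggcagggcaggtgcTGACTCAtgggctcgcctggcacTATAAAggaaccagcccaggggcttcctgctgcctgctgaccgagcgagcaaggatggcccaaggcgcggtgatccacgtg
A match of letters is a description of the sequence and not evidence of binding.

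Among the lower genes, *Esr1*, estrogen receptor alpha, was called on both of its brighter probe sets. The first gave 177, 79.5 and 151 in Sca-1Hi, against 568, 589, 398 and 706 in Sca-1Lo, and the second 69.95, 58.7 and 56.5 in Sca-1Hi, against 248, 168, 233 and 226 in Sca-1Lo. All Sca-1Hi arrays lay below all Sca-1Lo arrays on both (-2.11 ± 0.35, adjusted p = 0.0493, and -1.82 ± 0.25, adjusted p = 0.0159). The third *Esr1* probe set differed by -1.25 and was not called. The call of the brighter probe set did not survive the low and high study numbers as a block (adjusted p = 0.0684) or the removal of any 1 of the 7 arrays (adjusted p = 0.0571 to 0.324). The means of the brighter probe set in Sca-1Neg and UGE were 840 and 254. *Pgr*, the progesterone receptor and a known target of the estrogen receptor, gave 44.0, 48.7 and 65.9 in Sca-1Hi, against 114, 132, 89.7 and 91.7 in Sca-1Lo, without overlap but without passing the test (-1.02, adjusted p = 0.338).

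*Vtn*, vitronectin, an adhesive protein of plasma and matrix, gave 11.4, 14.1 and 40.4 in Sca-1Hi, against 221, 156, 594 and 925 in Sca-1Lo on the called probe set, with 2 Sca-1Hi arrays below 20, and was at least 14.7-fold lower (adjusted p = 0.0189). Its brighter probe set had the same order, with 97.7, 118 and 129 in Sca-1Hi, against 791, 679, 2511 and 3458 in Sca-1Lo, and narrowly missed the threshold (-3.69 ± 0.61, adjusted p = 0.0516). *Gm1673* gave 8.45, 8.10 and 9.57 in Sca-1Hi, against 147, 55.3, 59.1 and 89.8 in Sca-1Lo. All its Sca-1Hi arrays were below 20, and the gene was at least 4.05-fold lower (adjusted p = 0.0117). *Creb5*, a transcription factor of the leucine zipper type, was called on a probe set below 20 in both populations, for which no fold is given. Its brightest probe set differed by -1.14 with overlap (adjusted p = 0.756) and the others by -0.65 and -0.03. None of these was called, so the call belongs to the single probe set.

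Of the other 4 lower probe sets, 1 is named, for an antibody transcript. *Igkv8-30*, an immunoglobulin kappa variable segment, gave 36.3, 3.07 and 8.13 in Sca-1Hi, against 651, 241, 164 and 762 in Sca-1Lo, and was at least 15.3-fold lower (adjusted p = 0.0131). Its probe set and the 3 without gene names are of the type that can bind related transcripts, so the segment itself is uncertain, and those 3 were at least 24.9 to 33.1-fold lower, each with 1 or 2 Sca-1Hi arrays below 20. *Jchain*, the chain that joins secreted antibodies and is made by plasma cells, gave 52.9, 14.03 and 6.09 in Sca-1Hi, against 582, 206, 159 and 580 in Sca-1Lo, at least 11.7-fold lower but not called (adjusted p = 0.0722). In each of these the highest Sca-1Hi array was replicate 1. Leukocyte markers had a median of -0.59, as given with the marker lists, and their part in these differences was not tested.

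On the signals as deposited, all 18 higher probe sets differed by at least 1.88 within the arrays with study numbers 1 and 2, with a median of 2.59. Within those with numbers 3 to 5 they differed by at least 2.08, with a median of 2.98. The 9 lower probe sets had medians of -3.25 within numbers 1 and 2 and -4.96 within numbers 3 to 5. With signals below 20 raised to 20, the medians were 2.40 and 2.82 for the higher and -3.10 and -4.14 for the lower probe sets. The smallest differences of the higher probe sets were then 0.14 and 0.88, both of *S1pr5*, and *Creb5* among the lower was at 0 in both sets. Since the populations do not overlap in any called probe set, the shared sign follows from the choice. The sizes come from the same arrays as the calls and are a description only. With the 2 sets of numbers as a block over the adult arrays, 13 of the 18 higher and 8 of the 9 lower kept an adjusted p under 0.05. Those that did not were *Krt4*, *Syt8*, *S1pr5*, *Galnt3* and the higher probe set without a gene name, at adjusted p of 0.0525 to 0.0526, and the brighter *Esr1* probe set. The calls of *Adh7*, *Lipm* and that *Esr1* probe set were lost whichever of the 7 arrays was left out. *Nccrp1*, *Dapl1* and *Syt16* were called with each of the 7 arrays left out in turn, and none of the lower probe sets was.

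**Figure D3:**
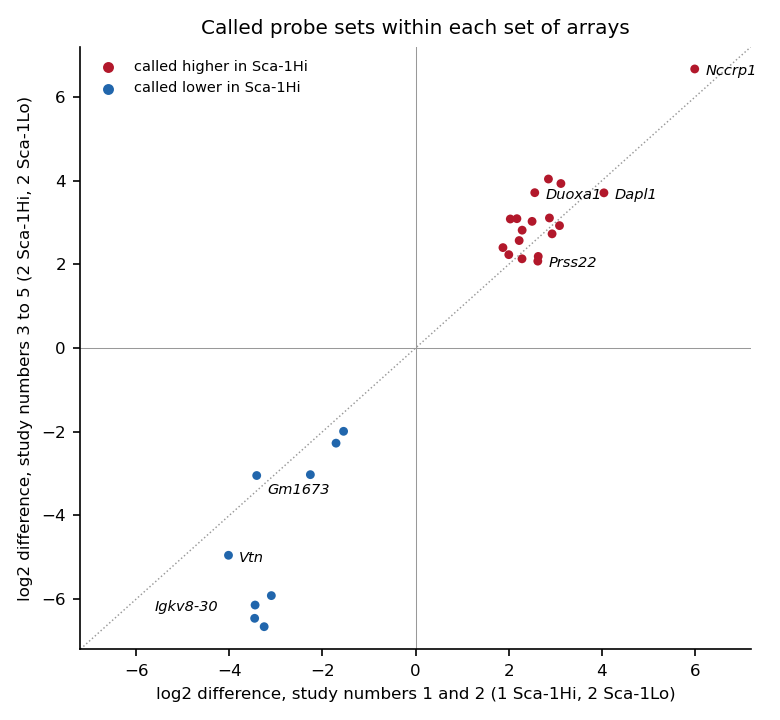
Log2 difference of the 27 called probe sets within arrays of study numbers 1 and 2 (horizontal axis) and of numbers 3 to 5 (vertical axis), with the diagonal of equal size. Higher probe sets (red) lie near the diagonal, with medians of 2.59 and 2.98, while lower ones (blue) have medians of -3.25 and -4.96, fitted with signals below 20 as deposited. The probe sets were called on these same arrays.

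Lists of genes by function are given beside these calls as a description. Their counts of members wholly above or below include the called ones. The lists were drawn up with earlier results known, 18 of 49 are given, chosen after their values were seen, and counts are read against all genes, of which 4.94% had every Sca-1Hi array above every Sca-1Lo array and 7.14% had every one below. Of 39 measured genes of the cornified envelope and squamous differentiation, 3 were called higher (*Krt4*, *Nccrp1*, *Dapl1*) and 0 lower, 15 lay wholly above and 1 below, and the median difference was 0.53, with 0.38 within numbers 1 and 2 and 0.58 within numbers 3 to 5. *Sprr1a*, a cross-linked envelope precursor, gave 2499, 2205 and 2325 in Sca-1Hi, against 690, 519, 385 and 243 in Sca-1Lo, without overlap (2.45, adjusted p = 0.0921). *Ivl*, involucrin, the scaffold of the envelope, gave 328, 224 and 232 in Sca-1Hi, against 102, 89.2, 37.3 and 21.9 in Sca-1Lo (2.30, adjusted p = 0.336). *Grhl3*, a Grainyhead-like factor needed for the epidermal barrier, gave 189, 140 and 123 in Sca-1Hi, against 48.6, 21.7, 33.3 and 28.8 in Sca-1Lo (2.22, adjusted p = 0.284), and averaged 2417 in UGE. None of these 3 passed the test, though none overlapped. Of 31 barrier lipid and peptidase enzymes, 2 were called higher (*Lipm*, *Padi4*), 5 lay wholly above and 0 below, with a median of 0.09, which was 0.04 within numbers 1 and 2 and 0.20 within numbers 3 to 5 and turned sign without Sca-1Hi replicate 1 or Sca-1Lo replicate 4 (lowest -0.036). *Alox12e*, an epidermal lipoxygenase, gave 556, 569 and 637 in Sca-1Hi, against 243, 128, 272 and 241 in Sca-1Lo (1.47, adjusted p = 0.204).

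Of 26 genes of dual oxidases, Clca proteins and ion transport, 4 were called higher (*Duox1*, *Duoxa1*, *Clca2*, *Fxyd4*), 8 lay wholly above and 1 below, and the median was 0.25, with 0.39 within numbers 1 and 2 and 0.16 within numbers 3 to 5. *Clca1*, of the same family as *Clca2*, gave 585, 574 and 428 in Sca-1Hi, against 98.6, 109, 201 and 85.7 in Sca-1Lo (2.17, adjusted p = 0.0809). Outside the lists' called members, several bright genes stood wholly above without passing the test. *Anxa8*, an annexin of stratified epithelia, gave 503, 809 and 1008 in Sca-1Hi, against 54.1, 50.02, 174 and 210 in Sca-1Lo (2.90, adjusted p = 0.0652). *Bbox1*, the last enzyme of carnitine synthesis, gave 267, 307 and 401 in Sca-1Hi, against 53.1, 36.0, 80.5 and 59.4 in Sca-1Lo (2.54, adjusted p = 0.0652). *Gsdmc2*, a gasdermin, gave 3945, 7930 and 7953 in Sca-1Hi, against 1020, 597, 1971 and 989 in Sca-1Lo (2.59, adjusted p = 0.111). These 3 genes and the next, *Gdpd2*, were taken from genes without overlap, so the order of their arrays follows from the choice. *Gdpd2*, a glycerophosphodiester phosphodiesterase, was at least 8.62-fold higher, with 2 Sca-1Lo arrays below 20, and was not called (adjusted p = 0.111).

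Markers of basal and luminal cells had lower medians than the squamous list, though not lower than the barrier enzymes. Of 21 basal cell markers, 1 lay wholly above and 0 below, the median was 0.28, and it was 0.34 within numbers 1 and 2 and -0.07 within numbers 3 to 5. *Krt5*, the keratin of basal cells, gave 5874, 8478 and 9488 in Sca-1Hi, against 4468, 2076, 7133 and 7025 in Sca-1Lo, and the groups overlapped (0.75, adjusted p = 0.751). *Krt14* went the other way in value, with 833, 1794 and 1334 in Sca-1Hi, against 1172, 877, 3538 and 3562 in Sca-1Lo (-0.59, adjusted p = 0.873). Its groups overlapped over all arrays. Within each set of numbers the Sca-1Hi arrays lay below the Sca-1Lo arrays, an order whose share over all genes was not counted. The largest differences in the list were those of *Sfn*, the 14-3-3 protein of stratified epithelia, at 1.92, or 1.89 with 1 Sca-1Lo array below 20 raised to 20 (adjusted p = 0.464), and *Itgb4*, the integrin subunit of hemidesmosomes, at 1.60 (adjusted p = 0.364). Of 19 luminal markers, 6 lay wholly above and 2 below, with a median of 0.13, which was 0.08 within numbers 1 and 2 and 0.27 within numbers 3 to 5 and turned to -0.055 without Sca-1Lo replicate 4. Those above included *Krt7*, a keratin of simple and transitional epithelia, with 5086, 5884 and 4846 in Sca-1Hi, against 2461, 1578, 2834 and 1690 in Sca-1Lo (1.34, adjusted p = 0.232). *Elf3*, an epithelial Ets factor, was at 1469, 1552 and 1282 in Sca-1Hi, against 732, 542, 480 and 246 in Sca-1Lo (1.62, adjusted p = 0.234). The populations overlapped in neither of these genes. Of 11 urothelial markers, which share *Krt7*, *Elf3* and *Grhl3* with other lists, 0 were called, 4 lay wholly above and 0 below. Of the 11, 6 had a positive difference, against 45.4% of all genes. The median was 0.24 (0.35 within numbers 1 and 2 and 0.45 within numbers 3 to 5). Their summed signal was 10451 to 14567 in Sca-1Hi and 4842 to 9643 in Sca-1Lo. The shared gene *Krt7* made up a large part of these sums, so they are no measure of urothelial cells. *Psca*, prostate stem cell antigen, also of urothelium, gave 2496, 1166 and 672 in Sca-1Hi, against 749, 588, 385 and 124 in Sca-1Lo, with overlap (1.72, adjusted p = 0.544). The part of urothelial cells in the squamous and luminal differences was not tested.

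Of the genes the study followed as proteins in these cells, *Itgb4* had the highest difference, at 1.60, followed by *Krt5* at 0.75. The other log2 differences were 0.38 for *Sox2*, a factor of stem and progenitor cells, 0.32 for *Cd34*, a surface antigen of progenitors and vessels, 0.29 for *Ctnnb1*, which encodes β-catenin, 0.18 for *Itga6*, the partner of *Itgb4*, 0.10 for *Bcl2*, an inhibitor of cell death, and 0.41 for *Clu*, a secreted chaperone. None was called, with adjusted p between 0.755 and 0.975 for these 6 genes, and the differences of *Cd34*, *Itga6* and *Bcl2* were -0.49, -0.15 and -0.56 within numbers 3 to 5. Of 14 Sox factors, 4 lay wholly above and 2 below, with a median of 0.44, which was 0.73 within numbers 1 and 2 and 0.15 within numbers 3 to 5. *Sox21*, a Sox factor known from hair, gave 496, 672 and 624 in Sca-1Hi, against 233, 174, 292 and 225 in Sca-1Lo (1.38, adjusted p = 0.165). *Sox4* was at 1044, 3833 and 2261 in Sca-1Hi, against 745, 301, 1276 and 999 in Sca-1Lo, with overlap (1.51, adjusted p = 0.424). *Grp*, which encodes gastrin-releasing peptide, gave 2457, 2657 and 3284 in Sca-1Hi, against 842, 309, 1192 and 618 in Sca-1Lo, without overlap (2.07, adjusted p = 0.278). *Grp* had the highest difference of 16 measured neuroendocrine genes, a list not otherwise given. Differences in that list ran from -1.82 to 2.07, with a median of -0.06, against -0.04 for all genes.

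**Figure D4:**
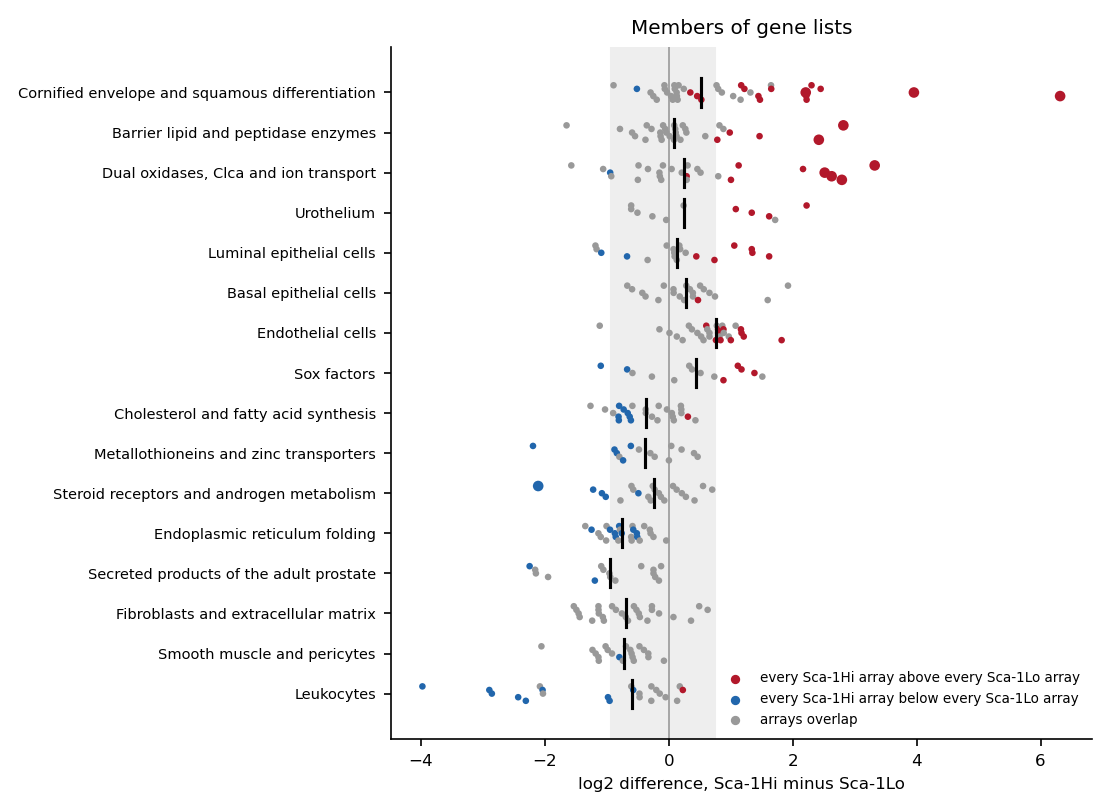
Log2 difference of each measured member of 16 gene lists, with a black bar at the list's median, red where every Sca-1Hi array lies above every Sca-1Lo array, blue where every one lies below, grey where they overlap, large points for called genes, and a grey band from the 5th to the 95th percentile of all genes (-0.93 to 0.75). Medians run from 0.77 for endothelial markers to -0.95 for secreted products of the prostate.

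The lists of endoplasmic reticulum folding and of secreted products had negative medians. Of 25 genes of folding in the endoplasmic reticulum, none was called, 9 lay wholly below and 0 above, and the median was -0.76, with -0.84 within numbers 1 and 2 and -0.51 within numbers 3 to 5. *Ero1b*, an oxidase that forms disulphide bonds in secretory cells, gave 168, 96.9 and 191 in Sca-1Hi, against 469, 424, 237 and 305 in Sca-1Lo (-1.25, adjusted p = 0.332). *Manf*, a factor released under stress of that compartment, gave 2637, 1217 and 1905 in Sca-1Hi, against 7706, 6593, 2244 and 2057 in Sca-1Lo, with overlap (-1.10, adjusted p = 0.549). Its 2 highest values were the Sca-1Lo arrays of numbers 1 and 2. Of 16 secreted products of the adult prostate, none was called, 2 lay wholly below and 0 above, and the median of -0.95 was -0.98 within numbers 1 and 2 and -0.49 within numbers 3 to 5. *Svs2*, a seminal vesicle secretory protein, gave 3223, 572 and 1263 in Sca-1Hi, against 10449, 6538, 4847 and 4712 in Sca-1Lo (-2.25, adjusted p = 0.204). *Svs6*, of the same family, gave 300, 79.8 and 209 in Sca-1Hi, against 3485, 1742, 186 and 299 in Sca-1Lo (-2.16, adjusted p = 0.445), and here the groups overlapped.

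In the lists of cholesterol and fatty acid synthesis, steroid and metal genes, *Esr1* alone was called. Of 25 genes of cholesterol and fatty acid synthesis, 7 lay wholly below and 1 above, with a median of -0.37, which was -0.27 within numbers 1 and 2 and -0.18 within numbers 3 to 5. *Idi1*, an isomerase of the mevalonate pathway, gave 284, 129 and 209 in Sca-1Hi, against 602, 309, 361 and 270 in Sca-1Lo, with overlap (-0.90, adjusted p = 0.409). Of 22 steroid receptors and enzymes of androgen metabolism, 1 was called lower, 5 lay wholly below and 0 above, with a median of -0.24, which was -0.18 within numbers 1 and 2 and -0.44 within numbers 3 to 5. *Cyp7b1*, which hydroxylates steroids, gave 159, 73.4 and 190 in Sca-1Hi, against 354, 310, 285 and 271 in Sca-1Lo (-1.22, adjusted p = 0.344). Of 14 metallothioneins and zinc transporters, 5 lay wholly below and 0 above, with a median of -0.39, which was -0.50 within numbers 1 and 2 and -0.47 within numbers 3 to 5. *Slc30a2*, a zinc exporter, gave 211, 31.6 and 153 in Sca-1Hi, against 807, 808, 229 and 297 in Sca-1Lo (-2.19, adjusted p = 0.435), and *Mt2*, a metallothionein, gave 5214, 2685 and 3997 in Sca-1Hi, against 9846, 7087, 5499 and 5696 in Sca-1Lo (-0.84, adjusted p = 0.501).

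Among markers of cells outside the epithelium no gene was called. Of 22 leukocyte markers, 9 lay wholly below and 1 above, the median was -0.59 (-0.70 within numbers 1 and 2 and -0.53 within numbers 3 to 5), and their summed signal was 3818, 1911 and 2193 in Sca-1Hi, against 11724, 7992, 3913 and 3767 in Sca-1Lo, with Sca-1Hi replicate 1 above Sca-1Lo replicate 4. With the *Gapdh* end ratio as a covariate in the fit, the leukocyte median was -0.15, level with the -0.15 of all genes in that setting. *Ptprc*, the CD45 antigen of all leukocytes, gave 12.3, 14.6 and 2.92 in Sca-1Hi, all below 20, against 168, 87.7, 135 and 131 in Sca-1Lo, at least 6.34-fold lower without passing the test (adjusted p = 0.153). *Cd52*, a small leukocyte antigen, gave 1815, 324 and 555 in Sca-1Hi, against 8162, 5082, 1250 and 1384 in Sca-1Lo, with overlap. In the list 3 markers were below 20 on every Sca-1Hi array, and 1 on every Sca-1Lo array. Markers of macrophages and of lymphocytes had medians of -0.02 and -0.12, near the -0.04 of all genes, and the macrophage median turned sign within numbers 3 to 5 and in 4 of the 7 leave-outs. With the covariate the macrophage and lymphocyte medians were 0.71 and 0.25. Of 30 endothelial markers, 11 lay wholly above and 0 below, with a median of 0.77, which was 0.99 within numbers 1 and 2 and 0.41 within numbers 3 to 5. *Cldn5*, the claudin of endothelial junctions, gave 2727, 4443 and 4278 in Sca-1Hi, against 601, 667, 1789 and 1726 in Sca-1Lo (1.82, adjusted p = 0.301). The summed endothelial signal was 35960 to 58697 in Sca-1Hi and 16964 to 43066 in Sca-1Lo.

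Stromal markers varied with the study numbers. The 27 fibroblast and matrix markers summed to 20297, 52473 and 99444 in Sca-1Hi, against 31533, 18383, 98548 and 141135 in Sca-1Lo, and were lowest on the arrays of numbers 1 and 2. Their median was -0.69, and it was -0.94 within numbers 1 and 2, -1.36 within numbers 3 to 5 and -0.99 with these sets as a block, while it turned to 0.19 without Sca-1Hi replicate 1, the 1 Sca-1Hi array of numbers 1 and 2. No member was without overlap over all arrays. *Lgr5*, a receptor for R-spondins and a marker of intestinal stem cells, was likewise lowest on those arrays, with 94.1, 965 and 981 in Sca-1Hi, against 409, 237, 5412 and 6897 in Sca-1Lo (-1.63, adjusted p = 0.654). *Wnt5a*, a Wnt ligand of mesenchyme, gave 53.9, 68.9 and 188 in Sca-1Hi, against 164, 120, 534 and 1017 in Sca-1Lo (-1.86, adjusted p = 0.428). For smooth muscle and pericytes, 1 of 20 markers lay wholly below and 0 above, with a median of -0.72, which was -1.30 within numbers 1 and 2 and -0.30 within numbers 3 to 5 and ranged from -1.44 to -0.38 with 1 array left out. *Pdgfrb*, a pericyte receptor, gave 211, 481 and 1007 in Sca-1Hi, against 1526, 643, 3111 and 4680 in Sca-1Lo (-2.06, adjusted p = 0.443). In *Lgr5*, *Wnt5a* and *Pdgfrb* the groups overlapped over all arrays. Within each set of numbers every Sca-1Hi array lay below every Sca-1Lo array. With so few arrays per set this order can arise easily, and its share over all genes was not counted. What part these cells have in any difference between the populations was not tested.

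**Figure D5:**
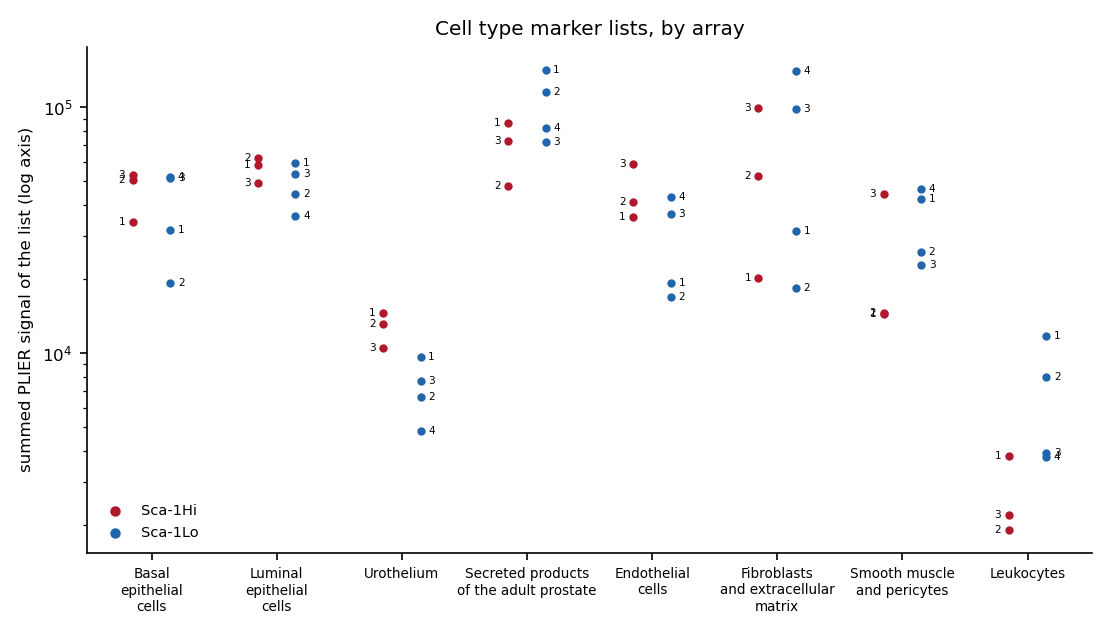
Summed PLIER signal, on a log axis, of the measured markers of 8 cell types on each of the 3 Sca-1Hi arrays (red) and 4 Sca-1Lo arrays (blue), with replicate numbers beside the points. Urothelial sums are 10451 to 14567 in Sca-1Hi and 4842 to 9643 in Sca-1Lo, with *Krt7*, also a luminal marker, a large part of them. Leukocyte sums overlap by 1 array, and fibroblast sums range over both populations.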

How the data were processed

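RNA from sorted cells (RIN above 7) was labelled by the authors from 20 ng in a procedure with repeated amplification and hybridised to Affymetrix mouse arrays. The authors deposited 1 PLIER intensity per probe set and array on a linear scale, and the submitters' processing notes name MAS5 and PLIER. A normalization between arrays is not given in the sources used here. Arrays have no read depth, and their number limits the precision.

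Of 45101 probe sets, 41031 were tested, namely those that exceeded 20 on 1 or more of the 14 arrays and are not array controls. The platform annotation names 1 gene for 35017 probe sets, several for 932 and none for 9088, and 72 were named through the study's tables. Log2 of the deposited signals, with nothing added, was fitted in limma 3.58.1 (R 4.3.3) with 4 group means over all arrays, and the contrast Sca-1Hi minus Sca-1Lo was called at a Benjamini-Hochberg adjusted p under 0.05 over all tested probe sets and over 1.75-fold. A gene is its probe set of highest mean log2 signal. Where a group's mean was below 20, or some of its arrays were, signals below 20 were set to 20 for a bound on the fold. Per-gene errors are SE from the fit.

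In simulated data with known changes for this comparison over 41031 probe sets, the fit found 4 of 50 changes of 2-fold, 25 of 50 of 4-fold, 42 of 50 of 8-fold and 46 of 50 of 16-fold, with 8 false calls. The simulated noise was independent between arrays, without the shared deviations of the study numbers, and only bright probe sets were changed. These counts therefore do not cover such deviations or changes near the floor. The replicate numbers of the labels do not pair arrays (correlations of deviations 0.50, -0.45 and 0.28).

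Named genes were taken from every called gene, from up to 10 higher and 10 lower genes without overlap (mean of at least 100 in 1 population, unadjusted p under 0.05), from up to 4 members per list with the largest difference, and from the antigens the study followed. The text names part of these, picked after their values were seen, and members and lists were chosen with earlier results of these data known. Figures were drawn with matplotlib 3.10.9.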

Additional observations from a re-analysis of the deposited data

Results flagged for a closer look

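In 93 sets of 4 Sca-1Lo values examined for a single array far from the others, 2 stood out, where chance alone gives about 1 in 20. *Padi4* was at 30.5 in Sca-1Lo replicate 2, against 54.0 to 59.2 in the other Sca-1Lo arrays, and *Alox12e* was at 128 in Sca-1Lo replicate 2, against 241 to 272 in the others.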

How the results depend on the processing

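The calls depend on how the spread is estimated and on single arrays. Counts below are of probe sets called higher and lower in Sca-1Hi, with genes in brackets, against 18 and 9 (14 and 3) as reported. Adding 16 before log2 gave 38 higher (27). Quantile normalization gave 35 and 19 (22 and 9), and centring on the 75th percentile gave 5 lower. Fitting only the 7 arrays gave 4 and 0 (3 and 0), and only the adult arrays 11 and 1 (1 gene lower). The replicate block on the labels' numbers, which do not pair the arrays, gave 10 and 15 (8 and 6). The study number block gave 1 and 0 (1 and 0), and the block of low and high study numbers 15 lower (5). Only numbers 1 and 2 gave 0 higher (0) with 5 genes lower, and only numbers 3 to 5 gave 0 and 0 (0 and 0), with 3901 at an unadjusted p under 0.05. With the *Gapdh* end ratio as a covariate the counts were 29 and 55 (26 genes lower). A test against 1.75-fold (treat) gave 2 and 0 (2 and 0). Array weights, whose estimation stopped before it converged, gave 422 and 290 (142 and 140). The methods' t-test with adjustment gave 0 and 0 (0 and 0), with 4416 at an unadjusted p under 0.05. A partial form of the methods' chain of filters also gave 0 and 0 (0 and 0), with 754. It kept 6155 most variable probe sets and the 3787 of them that passed an ANOVA. The methods' detection calls and significance analysis of microarrays were left out, so this is not the study's own chain. The study compared each population with Sca-1Neg. Leaving out the Sca-1Lo arrays of numbers 4 and 5, an alternative chosen after seeing the data, gave 7 and 1 (6 and 0). With the probe set of largest difference per gene, 5 genes were lower. Leaving out 1 array in turn gave 3 to 15 higher (3 to 11 genes) and 0 to 15 lower (0 to 6 genes), lowest without Sca-1Hi replicate 2 (3 and 0), Sca-1Hi replicate 3 (4 and 1) and Sca-1Lo replicate 4 (8 and 0). The cause was not tested.

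Signs turned for few named genes, none of them called. With the covariate, log2 differences were -0.14 for *Krt5*, -0.19 for *Sox2*, -0.19 for *Cd34*, -0.057 for *Ctnnb1*, -0.35 for *Itga6* and -0.34 for *Bcl2*. With the study number block *Sox2* was at -0.13, and with the block of low and high numbers *Bcl2* was at -0.0098. Within numbers 3 to 5 *Cd34* was at -0.49, *Itga6* at -0.15 and *Bcl2* at -0.56, and with array weights *Bcl2* was at -0.18. With single arrays left out, *Cd34* ranged from -0.084 to 0.80, *Itga6* from -0.10 to 0.37 and *Bcl2* from -0.25 to 0.33. Without the Sca-1Lo arrays of numbers 4 and 5, *Krt14* was at 0.31, *Loxl1* at 0.61, *Mfap4* at 0.34 and *Lgr5* at 0.52. Of the 16 lists with counts, the median turned sign for basal markers (within numbers 3 to 5, and -0.29 with the covariate), ion transport (-0.050 with the covariate), luminal markers (without Sca-1Lo replicate 4), barrier enzymes (without Sca-1Hi replicate 1 or Sca-1Lo replicate 4) and fibroblast markers (without Sca-1Hi replicate 1), and for no other in the settings run for the lists. The leukocyte median kept its sign but was -0.15 with the covariate, where that of all genes was also -0.15.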
